A study of Mus musculus with 8 samples.

Results

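The genes examined here encode semaphorins, plexins, neuropilins, ephrins, Eph receptors, Slit ligands and Robo receptors, the ligands and receptors best known for steering axons and migrating cells. They were taken by gene symbol from the count table of the study, and the rule found 60 genes among 55487 gene identifiers. The RNA came from mouse E14-Tg2a embryonic stem cells, kept in serum and LIF and then grown in serum-free medium towards precardiac mesoderm until day 6. The 4 parental libraries have the genotype WT. The other 4 libraries are from line 4D, derived from the same cells and given as Tbx1-/-, so both groups share the cell background, the differentiation and the day. Tbx1 encodes a T-box transcription factor of pharyngeal and second heart field progenitors. All mutant libraries come from 1 line, so effects of the genotype and of anything else particular to 4D cannot be told apart. The series' design text calls the 4 libraries of a line biological replicates, and nothing says how far apart the cultures were kept, so the p-values measure the spread between these libraries.

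Semaphorins are ligands, either secreted or held in the membrane, that act through plexins, and most secreted members also need a neuropilin as coreceptor. Ephrins stay attached to the cell that makes them: A-ephrins by a lipid anchor, B-ephrins by a membrane span. They bind Eph receptor tyrosine kinases on neighbouring cells and can signal in both directions. Slit proteins are secreted and bind Robo receptors. In the heart, Sema3c acting through Plxnd1 and neuropilins is known for its part in septation of the outflow tract, Slit and Robo genes for heart tube and septum formation, and Efnb2 with Ephb4 for the split between arteries and veins.

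Of the 60 guidance genes, 3 rose in the mutant line and 0 fell at an adjusted p under 0.05. These were the receptor gene Epha7, the membrane semaphorin gene Sema5a and the B-ephrin gene Efnb3. Their fold changes were 2.61 (95% interval 1.99 to 3.44), 2.26 (1.79 to 2.87) and 2.06, the last with a 95% interval of 0.68 to 1.41 on the log2 scale. They lie on different chromosomes and belong to different classes. A filter on low counts left 49 members for testing. Over all 13280 genes tested, 0.745% were called higher and 0.670% lower, against 6.12% and 0 of the tested members. The adjusted p is the Benjamini-Hochberg value over all 13280 genes from edgeR's quasi-likelihood test, which was used for every comparison of the lines. Levels are CPM, counts per 1000000 of a library's tested counts after TMM scaling. The assay counts the 3′ end of a transcript, so that a count does not grow with transcript length.

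In the other 46 tested members no call was made. Of these 46, 21 had a positive and 25 a negative log2 fold change. Over all 49 tested members 24 were positive (50.2% of all genes were), and the median was -0.03 against 0.00 for all tested genes. An unadjusted p under 0.05 was found for 10 of the 49 (20.4%), beside 11.9% of all genes. For 5 members (10.2%) the ranges of the lines were apart, beside 7.52% of all genes. Of these, 4 were higher in the mutant line, where the share of all genes was 3.49%, and 1 was lower, where it was 4.04%. Epha3, among the 4, had at most 12 counts in a parental library. It passed the low-count filter through its mutant libraries, so its place among the 4 depends in part on that filter. Leaving out mutant library 4, which stood apart from the rest, gave 51 tested members with the same 3 genes called higher, 26 with a positive log2 fold change and a median of 0.00. Over all genes 1.29% were then called.

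The members called under other tools and settings are given with each gene, and the share of all genes called there is the background. It was 3.00% with DESeq2, 1.90% with limma-voom, 1.64% without the low-count filter, 1.76% with a replicate block, 1.43% with RLE size factors, 1.18% with library size alone, 1.39% with upper-quartile scaling and 1.40% with a mean of at least 10 counts. Without parental library 1, 2, 3 or 4 it was 1.06%, 0.750%, 0.756% and 1.18%, and without mutant library 1, 2 or 3 it was 0.958%, 1.71% and 0.843%.

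**Figure D1:**
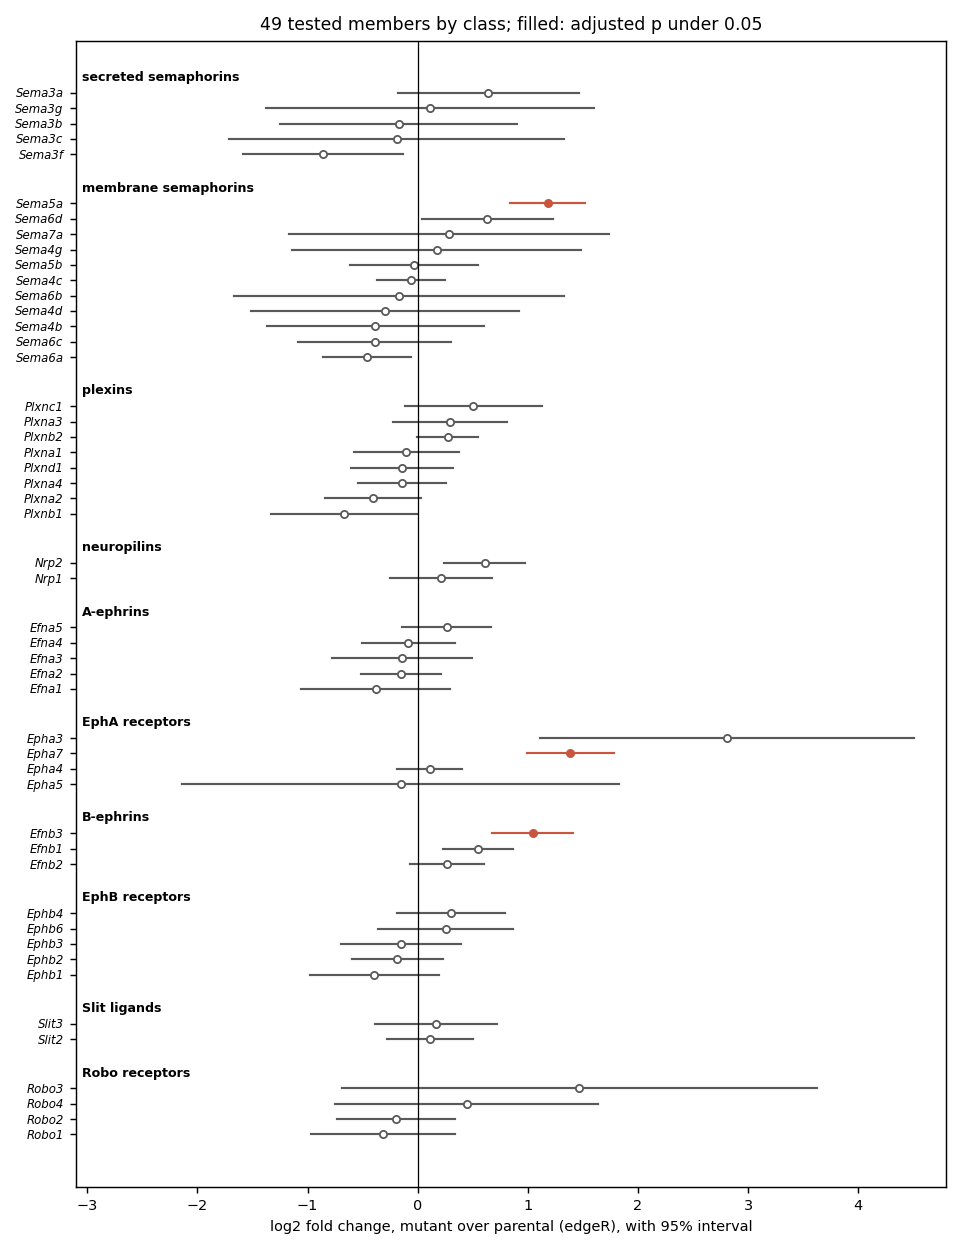
Log2 fold change of each of the 49 tested guidance genes, mutant over parental, with its 95% interval, grouped by ligand and receptor class. The 3 filled points, Sema5a, Epha7 and Efnb3, are those with an adjusted p under 0.05, and the other 46 are open.

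Depth was between 3803561 and 6293907 counts per library, and 3 counts correspond to 0.479 to 0.825 CPM. Mutant library 4 was the shallowest and had 14850 genes with a count, where the other libraries had 18213 to 19134. Its log2 levels correlated with the other libraries at 0.857 to 0.881 across genes, which are not independent replicates, whereas all other pairs lay between 0.920 and 0.944. As a check of the labels, Tbx1 had 39, 65, 38 and 22 counts in parental libraries 1 to 4 and 3, 0, 1 and 0 in mutant libraries 1 to 4. The fitted log2 fold change was -5.08 ± 0.88 (SE) with an adjusted p of 0.00432 from edgeR, and a two-sided exact permutation test of CPM gave p = 0.0286, the smallest possible with 4 libraries a line. In such bulk RNA, fewer cells of a type and less RNA per cell cannot be told apart.

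Lists of cell type markers were counted in the same libraries. Over all genes, edgeR called 1.42%, DESeq2 3.00% and limma-voom 1.90%, and 11.9% had an unadjusted p under 0.05 in edgeR. All 12 precardiac and heart field genes were tested and none was at 0 in every library. Their summed level was 1429 to 1782 CPM in the parental and 1424 to 1658 CPM in the mutant libraries, but single members differed in both directions. Gata6 was called higher and Fgf10 lower, 8 of the 12 had an unadjusted p under 0.05 (3 higher, 5 lower), and DESeq2 and limma-voom called 5 each. Mesenchyme markers had a summed level of 1030 to 1523 CPM in the parental and 2096 to 2681 CPM in the mutant libraries, and 4 of the 8 tested of 10 were called higher. All 8 had a positive log2 fold change, with a median of 0.95. For erythroid and haematopoietic markers the ranges were 144 to 203 and 660 to 942 CPM, with 3 of the 9 tested of 10 called higher. All 9 were positive, with a median of 0.87. Endothelial markers ran from 677 to 1070 and from 807 to 1471 CPM, with 0 of the 13 tested of 14 called by edgeR (1 at an unadjusted p under 0.05, 1 by DESeq2 and 0 by limma-voom). Of the 13, 11 had a positive log2 fold change, with a median of 0.34. Cardiomyocyte markers ran from 627 to 3619 CPM in the parental and from 122 to 959 CPM in the mutant libraries. All 10 tested of 11 cardiomyocyte genes had a negative log2 fold change, with a median of -1.27 and 7 at an unadjusted p under 0.05, but 0 were called by edgeR, DESeq2 or limma-voom. Smooth muscle markers, at 203 to 1168 and 336 to 463 CPM, were negative in all 4 tested of 5, with a median of -1.02, 1 unadjusted p under 0.05 and 0 calls by the same tools. Endoderm and epithelial markers ran from 276 to 482 and from 251 to 299 CPM, with 2 of the 9 tested of 11 called lower, Foxa2 and Krt18. Pluripotency markers were at 15.6 to 36.5 and 11.1 to 27.8 CPM. Of these, 4 of 6 were tested, with 1 lower at an unadjusted p under 0.05 and 0 called. Neural markers stayed low at 54.99 to 75.1 and 35.4 to 66.5 CPM, and neural crest markers were at 80.5 to 99.2 and 83.2 to 127 CPM. Tested were 6 of 10 neural markers, with a median of -0.39, 1 lower at an unadjusted p under 0.05 and 0 calls. For neural crest, 5 of 8 were tested, with a median of 0.41, 0 at an unadjusted p under 0.05 and 0 calls. No marker of any list was at 0 in all 8 libraries. The part of such shifts in the guidance gene results was not tested.

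Among the semaphorins, Sema5a stood out. Sema5a encodes a membrane semaphorin with thrombospondin repeats, which can attract or repel growing axons. Its level was 58.0, 56.2, 58.1 and 40.0 CPM in parental libraries 1 to 4 and 122, 101, 107 and 152 CPM in mutant libraries 1 to 4. Every mutant library was above every parental library, and mutant library 4 was the highest. The mean went from 53.1 ± 8.74 to 120 ± 22.7 CPM (SD, n = 4), a log2 fold change of 1.18 ± 0.16 (SE) with an adjusted p of 0.000551. Without mutant library 4 the log2 fold change was 1.05 with an adjusted p of 0.00105. Sema5a (ENSMUSG00000022231.10) codes for protein and spans 32244810 to 32696341 of chromosome 15, plus strand (GRCm38). The gene annotated antisense to it had 0 counts in all libraries.

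No other membrane semaphorin was called by edgeR, DESeq2 or limma-voom, which called 1.42%, 3.00% and 1.90% of all genes. Of the 13 genes of this class 11 were tested, and beside Sema5a 3 had a positive and 7 a negative log2 fold change. The differences from Sema5a were not tested. Sema5b, the closest relative of Sema5a, had 17.0 to 18.3 CPM in the parental and 10.4 to 23.6 CPM in the mutant libraries, with a log2 fold change of -0.03 (95% interval -0.62 to 0.55). Sema6a, a transmembrane ligand of A-type plexins, was the second most abundant of the class. It had 70.9, 110, 84.6 and 89.8 CPM in the parental and 69.2, 89.6, 47.0 and 53.1 CPM in the mutant libraries 1 to 4. The lines overlapped, and the log2 fold change of -0.46 ± 0.19 had an adjusted p of 0.333. Sema6d, known from heart tube development, had 11.6 to 15.2 CPM in the parental and 12.4 to 26.4 CPM in the mutant libraries, at a log2 fold change of 0.63 ± 0.28 and an adjusted p of 0.382. Sema4c differed little, with 66.6 ± 6.20 and 63.7 ± 6.47 CPM (SD, n = 4) and a 95% interval of -0.37 to 0.24 on the log2 scale. For Sema4b the value rested on mutant library 4, which had 1.10 CPM where the other 7 libraries had 13.9 to 23.0 CPM. Its log2 fold change was -0.39 with that library and -0.02 without it.

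Secreted semaphorins were low throughout, with class sums of 37.5 to 48.98 CPM in the parental and 22.0 to 52.6 CPM in the mutant libraries. Sema3f, a repellent ligand that binds neuropilin 2, was the most abundant and had the smallest p. Its level was 19.8, 21.9, 23.8 and 18.1 CPM in parental libraries 1 to 4 and 15.6, 17.9, 7.27 and 4.95 CPM in mutant libraries 1 to 4. All mutant values lay under all parental values, but mutant library 2 came within 0.253 CPM of parental library 4. The log2 fold change of -0.86 ± 0.35 (SE) had an adjusted p of 0.306, and it was -0.63 without mutant library 4. Sema3a, a ligand that binds neuropilin 1, had 5.27 to 10.6 CPM in the parental and 6.32 to 16.0 CPM in the mutant libraries, a log2 fold change of 0.64 ± 0.39 with an adjusted p of 0.563. Sema3c had 19, 3, 24 and 25 counts in parental and 19, 16, 11 and 10 counts in mutant libraries. The log2 fold change of Sema3c, -0.19, had a 95% interval of -1.71 to 1.33, which leaves differences of either sign within that range open. Sema3d and Sema3e were too low to be tested.

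As a share of all secreted semaphorin CPM, Sema3f made up 47.4% ± 2.12 in parental and 28.6% ± 6.88 in mutant libraries (SD, n = 4). Sema3a made up 16.5% ± 3.52 and 30.2% ± 1.81. In the membrane class, the share of Sema5a was 18.3% ± 3.02 in parental and 36.7% ± 6.49 in mutant libraries, and that of Sema6a was 30.5% ± 4.14 and 19.5% ± 4.84. Sema6a was thus the leading membrane semaphorin in the parental mean and Sema5a in the mutant mean. Shares of a sum are not independent of each other.

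Plexins, the semaphorin receptors, showed no call in 8 tested of 9 genes. The smallest adjusted p was 0.416, for Plxnb1, and 1 gene had an unadjusted p under 0.05. DESeq2 and limma-voom also called 0 of them. Of all genes, edgeR called 1.42%, DESeq2 3.00% and limma-voom 1.90%. Plxnb1, the receptor of Sema4d, had 43.1, 36.8, 38.5 and 44.9 CPM in the parental and 31.9, 38.6, 24.2 and 7.15 CPM in the mutant libraries 1 to 4. Mutant library 4 was far below the rest, and mutant library 2 was inside the parental range. The log2 fold change was -0.67 ± 0.32 with all libraries and -0.37 without mutant library 4. Plxnb2 was the most abundant plexin, at 82.0 ± 5.28 CPM in the parental and 99.1 ± 11.2 CPM in the mutant libraries (SD, n = 4), at a log2 fold change of 0.27 ± 0.13 and an adjusted p of 0.434. Plxnd1, the receptor through which Sema3c and Sema3e act in vessels and the outflow tract, had 31.8 to 61.6 CPM in the parental and 31.2 to 54.1 CPM in the mutant libraries. Its log2 fold change was -0.14 with a 95% interval of -0.61 to 0.32. Candidate receptors of Sema5a are Plxna1, Plxna3 and Plxnb3. Plxna1 and Plxna3 had log2 fold changes of -0.10 and 0.29 with adjusted p of 0.914 and 0.716, while Plxnb3 had 3 counts in mutant library 2 and 0 in the other libraries.

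Neuropilins were the most abundant genes of the whole set. Nrp2 had 197, 151, 125 and 102 CPM in parental libraries 1 to 4 and 280, 190, 187 and 219 CPM in mutant libraries 1 to 4. Parental library 1 lay inside the mutant range, and the other 3 parental libraries were below all mutant values. Genes annotated inside Nrp2 on either strand held up to 64 counts in a library. The same-strand gene, Gm37121, had 97 counts over the parental and 186 over the mutant libraries. The antisense gene, Gm29083, had 96 and 156. Some same-strand reads may belong to either Nrp2 or Gm37121. The log2 fold change of Nrp2 was 0.61 ± 0.17 (SE) with an adjusted p of 0.103. DESeq2 gave 0.0257 and limma-voom 0.0498 for the same counts, and over all alternatives the adjusted p ran from 0.000672 to 0.308. Nrp1 had 349, 274, 195 and 159 CPM in the parental and 433, 245, 225 and 227 CPM in the mutant libraries, at a log2 fold change of 0.21 ± 0.22 and an adjusted p of 0.774. Mutant library 1 set the sign for Nrp1: without it the log2 fold change was -0.077. The summed endothelial markers were 1070, 914, 702 and 677 CPM in the parental and 1471, 807, 856 and 842 CPM in the mutant libraries 1 to 4, so that library 1 was the highest of its group for these markers and for both neuropilins. This was not particular to endothelial markers. Library 1 was likewise the highest of both groups for the erythroid, the smooth muscle, and the endoderm and epithelial sums. Cardiomyocyte sums were 3619, 1940, 872 and 627 CPM in parental libraries 1 to 4, and mutant library 3 was the highest of its group. The part of endothelial RNA, or of any other cell type, in the neuropilin values was not tested. Nrp1 held 62.6% ± 1.82 of neuropilin CPM in parental and 55.6% ± 4.10 in mutant libraries.

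Efnb3 gave the only call among the ephrins. It encodes a B-ephrin known as a midline repellent for axons of the spinal cord. Its level was 53.8, 84.9, 69.6 and 67.0 CPM in parental libraries 1 to 4 and 131, 98.5, 168 and 172 CPM in mutant libraries 1 to 4. The lines did not overlap, with mutant library 2 the lowest of the mutant group. The mean went from 68.8 ± 12.7 to 142 ± 34.5 CPM (SD, n = 4), a log2 fold change of 1.04 ± 0.18 (SE) with an adjusted p of 0.0035. Without mutant library 4 it was 0.94 with an adjusted p of 0.00716. Efnb3 (ENSMUSG00000003934.5) spans 69554092 to 69560205 of chromosome 11, minus strand, and no other annotated gene overlaps it.

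The remaining B-ephrins had smaller differences of the same sign. Efnb1, an X-linked ligand known from craniofacial boundaries, had 170, 124, 106 and 95.4 CPM in the parental and 194, 168, 186 and 174 CPM in the mutant libraries 1 to 4. Only parental library 1 overlapped the mutant range, by a small margin over mutant library 2. The log2 fold change of Efnb1 was 0.54 ± 0.15 with an adjusted p of 0.0892. It passed with DESeq2 (adjusted p 0.0234), with limma-voom (0.0356) and without parental library 1 (0.0104), and over all alternatives the adjusted p ran from 0.00703 to 0.296. Efnb2, a marker of arterial endothelium, had 49.3 to 59.4 CPM in the parental and 52.5 to 76.8 CPM in the mutant libraries, at a log2 fold change of 0.26 ± 0.16 and an adjusted p of 0.564. Summed over the class, B-ephrin RNA was 222 to 273 CPM in the parental and 335 to 431 CPM in the mutant libraries. Efnb3 made up 28.2% ± 5.71 of it in parental and 36.4% ± 5.95 in mutant libraries (SD, n = 4).

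No A-ephrin was called among 5 tested genes, none had an unadjusted p under 0.05, and DESeq2 and limma-voom called 0. The shares of all genes called were 1.42% by edgeR, 3.00% by DESeq2 and 1.90% by limma-voom. Class sums of 212 to 259 CPM in the parental and 199 to 230 CPM in the mutant libraries overlapped. The most abundant A-ephrin was Efna2, at 98.9 ± 18.0 and 89.1 ± 23.0 CPM (SD, n = 4), with a log2 fold change of -0.15 and a 95% interval of -0.51 to 0.22. Efna5, a repellent of topographic maps in the brain, had the smallest p of the class. It had 41.8 ± 11.9 and 50.2 ± 2.34 CPM, at a log2 fold change of 0.26 ± 0.19 and an adjusted p of 0.654. A-ephrins are the ligands of Epha7, whose RNA rose. Of the other A-ephrins, Efna1 had a log2 fold change of -0.38 (95% interval -1.06 to 0.29), Efna3 of -0.14 (-0.78 to 0.49) and Efna4 of -0.088 (-0.51 to 0.33).

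Epha7 had the largest change of the 3 called guidance genes and the smallest p of all members. It encodes a receptor for A-ephrins with roles in brain patterning and neural tube closure. Its level was 37.3, 21.9, 30.6 and 24.9 CPM in parental libraries 1 to 4 and 87.4, 70.6, 63.4 and 78.9 CPM in mutant libraries 1 to 4. Every mutant library was above every parental library by a wide margin. The mean went from 28.7 ± 6.79 to 75.1 ± 10.4 CPM (SD, n = 4), a log2 fold change of 1.39 ± 0.19 (SE) with an adjusted p of 0.000507, rank 19 by p among the 13280 genes. Without mutant library 4 it was 1.36 with an adjusted p of 0.000798. Epha7 (ENSMUSG00000028289.12) codes for protein and spans 28813131 to 28967499 of chromosome 4, plus strand, and the gene annotated antisense to it had 0 counts in all libraries.

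**Figure D2:**
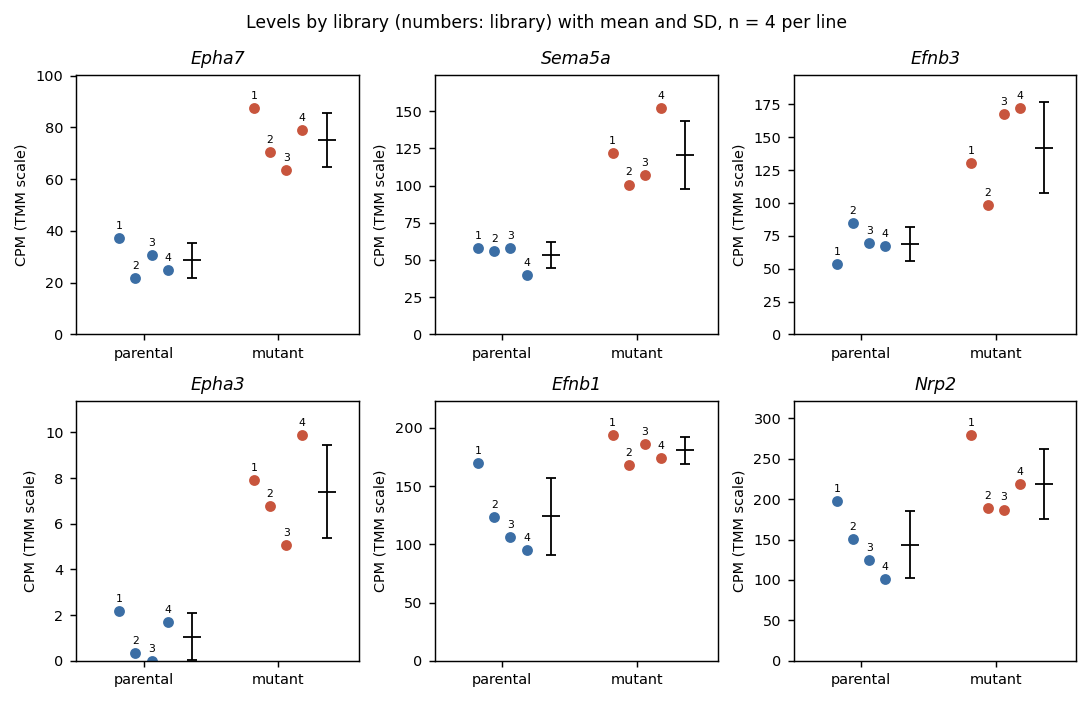
CPM of 6 guidance genes in each library, with points numbered by library, and the mean and SD of each line (n = 4). The lines are apart for Epha7, Sema5a, Efnb3 and Epha3, while parental library 1 reaches into the mutant range for Efnb1 and Nrp2.

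Epha4 was the most abundant Eph receptor and gave no such difference. It is a broad receptor that binds A-ephrins as well as B-ephrins, among them the product of Efnb3. Its level was 105 to 136 CPM in the parental and 101 to 154 CPM in the mutant libraries, with a log2 fold change of 0.11 and a 95% interval of -0.19 to 0.40. As a share of EphA CPM, Epha4 made up 76.9% ± 5.61 in parental and 59.6% ± 6.71 in mutant libraries (SD, n = 4), and Epha7 18.0% ± 4.93 and 34.0% ± 6.43. The shares were not tested. Summed over the class, EphA RNA was 149 to 170 CPM in the parental and 200 to 252 CPM in the mutant libraries.

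Epha3 had the largest fold change of the tested members but did not pass the threshold. It encodes an A-ephrin receptor needed for the endocardial cushions of the mouse heart. Counts were 12, 2, 0 and 8 in parental libraries 1 to 4 and 47, 31, 28 and 36 in mutant libraries 1 to 4. The lowest mutant library thus had more counts than the highest parental library. Epha3 passed the low-count filter through its mutant libraries, so it was tested because it was high there. In CPM the means were 1.06 ± 1.04 and 7.41 ± 2.02 (SD, n = 4). Its log2 fold change of 2.81 ± 0.81 (SE, 95% interval 1.11 to 4.50) had an adjusted p of 0.105, and it passed with DESeq2 at 0.00545. Over its alternatives the adjusted p ran from 0.00545 to 0.305, and it was 0.153 without mutant library 4. The gene spans 63543534 to 63864175 of chromosome 16, minus strand.

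Most other EphA genes were close to the level of 3 counts. Epha5 was the only other tested member of the class, with 0.364 to 4.64 CPM in the parental and 0.182 to 6.97 CPM in the mutant libraries and a log2 fold change of -0.15 (95% interval -2.14 to 1.83), which was 0.16 without mutant library 4. Epha2 had 14, 15, 39 and 2 counts in parental and 2, 7, 4 and 0 counts in mutant libraries. It was removed by the low-count filter, and without that filter its log2 fold change of -2.16 had an adjusted p of 0.495. Epha1 and Epha10 owed most of their counts to a single library each, 23 of them in mutant library 2 and 29 in mutant library 4. Epha8 had at most 3 counts, and Epha6 had 0 counts in all 8 libraries, which at 3 counts allows up to 0.479 to 0.825 CPM.

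EphB receptors, which bind B-ephrins, gave no call beside the rise of Efnb3. None of 5 tested genes was called by edgeR, DESeq2 or limma-voom, which called 1.42%, 3.00% and 1.90% of all genes. None had an unadjusted p under 0.05, beside 11.9% of all genes. Class sums were 134 to 152 CPM in the parental and 110 to 165 CPM in the mutant libraries. Ephb4, a marker of venous endothelium, was the most abundant at 33.5 ± 9.25 and 41.4 ± 11.6 CPM (SD, n = 4), with a log2 fold change of 0.30 and a 95% interval of -0.18 to 0.79. Ephb1 had the smallest p, with 14.7 to 30.3 CPM in the parental and 11.8 to 23.5 CPM in the mutant libraries, a log2 fold change of -0.40 ± 0.28 and an adjusted p of 0.635. Known receptors of the Efnb3 product are Ephb1, Ephb2, Ephb3 and Epha4. Ephb2 and Ephb3 had log2 fold changes of -0.19 and -0.15 with intervals of -0.60 to 0.23 and -0.70 to 0.39.

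Promoter sequence is shown for Epha7 and Sema5a because both rose and their start sites are in the RefSeq promoter table of build GRCm38.p6, where 53 of the 60 members matched by symbol. Each window holds 245 bases, ends 5 bases before the most upstream RefSeq start site and is written 5′ to 3′ on the gene's strand. Capitals mark the GC box GGGCGG or its reverse complement, a site type of SP and KLF factors. The Epha7 window is chr4:28812881-28813125 on the plus strand, and the Sema5a window is chr15:32244563-32244807 on the plus strand.
Epha7: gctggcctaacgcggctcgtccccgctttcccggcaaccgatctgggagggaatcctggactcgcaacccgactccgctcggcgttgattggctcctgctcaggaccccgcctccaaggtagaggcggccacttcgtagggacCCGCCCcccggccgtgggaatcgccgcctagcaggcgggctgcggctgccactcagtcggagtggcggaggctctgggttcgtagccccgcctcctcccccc
Sema5a: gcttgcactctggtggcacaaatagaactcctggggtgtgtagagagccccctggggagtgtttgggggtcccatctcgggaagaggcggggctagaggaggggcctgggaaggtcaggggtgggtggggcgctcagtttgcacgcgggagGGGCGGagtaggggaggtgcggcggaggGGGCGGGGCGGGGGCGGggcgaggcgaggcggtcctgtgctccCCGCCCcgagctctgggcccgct
The Epha7 window held 1 GC box and that of Sema5a 5, beside at least 1 in 32.1% of 32841 windows of this length. Their GC contents of 70.6% and 71.8% compare with a median of 52.2%, and they held 25 and 17 CG dinucleotides against a median of 5. Neither window held the T-box element GGTGTGA, present in 3.27% of windows, or the TATA box TATAAA, present in 12.2%, on either strand. Some of the GC boxes in the Sema5a window overlap each other. The deposited counts are of 3′ ends and do not show which start site was used.

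Slit2 and Slit3 gave no call, by edgeR, DESeq2 or limma-voom, which called 1.42%, 3.00% and 1.90% of all genes. Slit2, the main Slit ligand here, had 99.1, 77.3, 56.6 and 59.2 CPM in the parental and 95.8, 80.2, 80.1 and 59.4 CPM in the mutant libraries 1 to 4. The ranges of the lines overlapped widely, with a log2 fold change of 0.11 (95% interval -0.28 to 0.50). Slit3 had 58.4, 25.7, 31.1 and 27.6 CPM in the parental and 38.6, 35.5, 28.9 and 58.0 CPM in the mutant libraries, with a log2 fold change of 0.17 (95% interval -0.39 to 0.72). For Slit3, genes annotated within it on the same strand held counts of their own, so that some reads may belong to either. Slit1 had at most 13 counts and was not tested.

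Robo receptors had no call among 4 tested genes, with 0 at an unadjusted p under 0.05 and 0 by DESeq2 or limma-voom. Over all genes the shares called were 1.42% by edgeR, 3.00% by DESeq2 and 1.90% by limma-voom. Robo2 was the most abundant, at 36.0 ± 11.8 CPM in the parental and 31.4 ± 9.34 CPM in the mutant libraries (SD, n = 4), with a log2 fold change of -0.20 (95% interval -0.73 to 0.34). Genes annotated inside Robo2 on the same strand held up to 32 counts in a library, so some reads may belong to either. Robo1 had 16.9 to 23.1 CPM in the parental and 16.2 to 20.9 CPM in the mutant libraries 1 to 3, but 6.32 CPM in mutant library 4. Its log2 fold change was -0.32 with that library and -0.07 without it. Robo3, a divergent receptor of commissural axons, had 3, 17, 0 and 1 counts in parental and 31, 4, 10 and 10 counts in mutant libraries. That spread left a log2 fold change of 1.47 ± 1.03 with an adjusted p of 0.635. Robo4, an endothelial receptor, had 2.74 to 7.46 CPM in the parental and 1.92 to 11.9 CPM in the mutant libraries, with an adjusted p of 0.823.

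**Figure D3:**
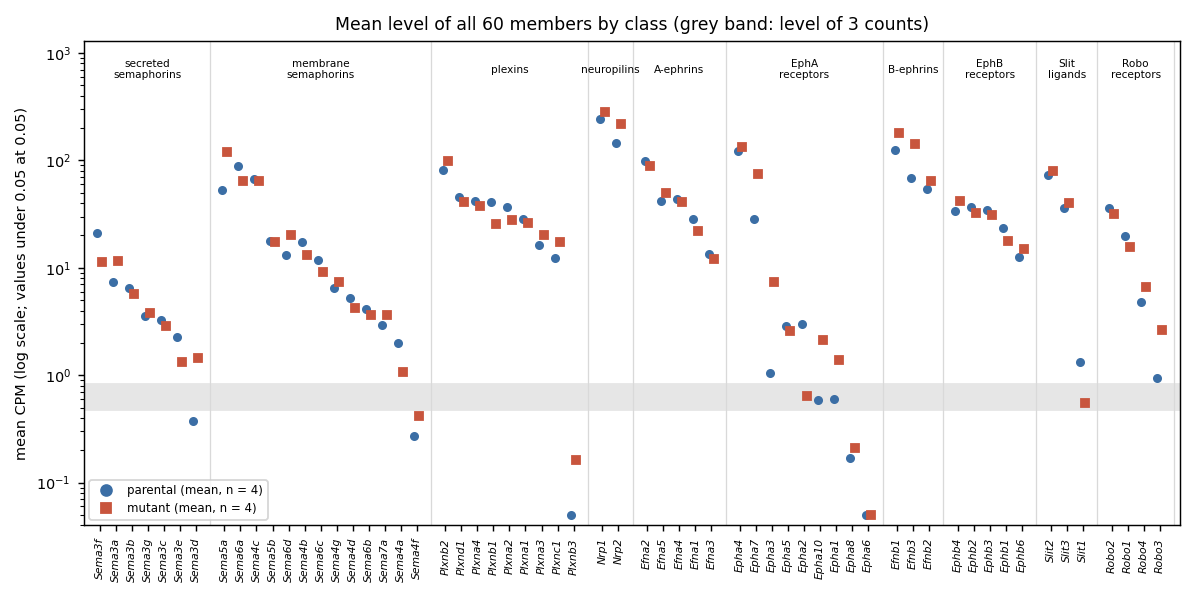
Mean CPM of all 60 guidance genes in parental and mutant libraries (n = 4 each) by class on a log axis, where the grey band marks the level of 3 counts and values under 0.05 are drawn at 0.05. Nrp1 and Nrp2 are highest, and the EphA class spans from Epha4 at 128 CPM over all libraries down to Epha6 at 0.

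By level, RNA of receptors and of ligands of each system was found in the same libraries, though not of every member. Bulk RNA does not show whether the same or neighbouring cells held them. Nrp1 and Nrp2 had mean levels over the 8 libraries that were the highest of the 60, followed by Efnb1 at 152 CPM and Epha4 at 128 CPM. Summed over all members, guidance RNA was 1810 to 2164 CPM in the parental and 2197 to 2533 CPM in the mutant libraries. Such a sum is weighted by abundant members. It includes the 3 called genes and was not computed without them, so it does not show a rise of the whole set. Parental and mutant means were 144 and 219 CPM for Nrp2, 124 and 181 CPM for Efnb1, and 68.8 and 142 CPM for Efnb3. They were 53.1 and 120 CPM for Sema5a, and 28.7 and 75.1 CPM for Epha7. Of the 49 tested members, 24 had a positive and 25 a negative log2 fold change. Of the 11 members below the filter, 5 were EphA receptors, 2 secreted semaphorins, 2 membrane semaphorins, 1 a plexin and 1 a Slit ligand. Without the filter none of the 10 with at least 1 count passed, and the smallest adjusted p was 0.495.

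**Figure D4:**
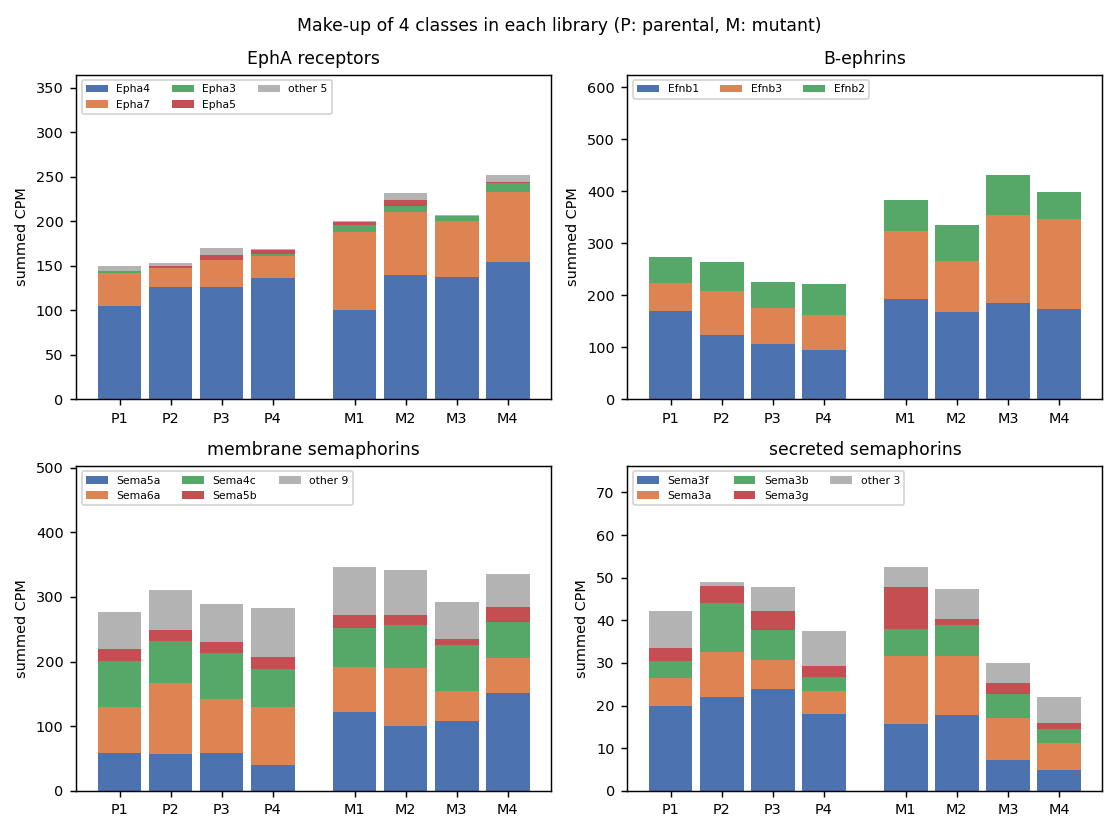
Summed CPM of 4 classes in each library (P1 to P4 parental, M1 to M4 mutant), with the 4 most abundant members coloured and the rest in grey. EphA and B-ephrin bars are taller in all mutant libraries, and the Epha7, Efnb3 and Sema5a segments are larger there.

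Genes that act with or downstream of these receptors were counted from a fixed list of coreceptors, adaptors, kinases, GTPase regulators, sheddases and growth factors. Of 74 listed genes 73 were found and 67 tested, and 0 were called by edgeR, beside 1.42% of all genes. An unadjusted p under 0.05 was found for 11 (16.4%, beside 11.9% of all genes), of which 6 had a positive and 5 a negative log2 fold change. DESeq2 called 3 and limma-voom 1. The median log2 fold change of the list was -0.02. Fyn, a Src family kinase that acts below plexin and Eph receptors, had the smallest p. Its level was 68.2, 62.8, 56.0 and 51.0 CPM in the parental and 102, 86.7, 74.1 and 91.5 CPM in the mutant libraries 1 to 4, and the lines did not overlap. The log2 fold change of Fyn was 0.57 ± 0.15 (SE) with an adjusted p of 0.0679, which over its alternatives ran from 0.0165 to 0.207. Dpysl5, a member of the collapsin response mediator family, had 25.3, 26.7, 35.3 and 22.3 CPM in the parental and 11.4, 21.4, 7.08 and 11.5 CPM in the mutant libraries. The lines did not overlap for Dpysl5 either. Its log2 fold change was -1.10 ± 0.30 with an adjusted p of 0.0877, ranging from 0.0107 to 0.281 over its alternatives.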

How the data were processed

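RNA was measured in 8 libraries, 4 per line, with QuantSeq, a 3′-end assay of polyA RNA per the labels' protocols. What the authors deposited is 1 table of raw counts, whole numbers with a column for each library, not normalized. STAR, featureCounts and the build mm10 are named in the submitters' processing notes, versions and options are not given in the sources used here, and the table's name states the forward strand. Of 55487 identifiers 55141 were matched to a symbol of GENCODE M21 (GRCm38) with the version dropped, among them the 60 members, 59 with an identical version. Coordinates are those of M21.

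Genes were filtered with filterByExpr and scaled by TMM, leaving 13280 genes with 99.5% of all counts. The lines were compared in edgeR 4.0.16 (R 4.3.3) with glmQLFit and glmQLFTest, intercept and line, two-sided, and Benjamini-Hochberg adjustment over all tested genes with a threshold of 0.05. Standard errors were computed as the log2 fold change over the root of F, and 95% intervals with t quantiles. Floors of 3 counts and intervals cover counting error or library spread only, since PCR copies are not independent molecules and the labels mention no molecular identifiers. The fit was tested on simulated data. Within each line the 12 library pairs differed beyond sampling noise (chi-square per degree of freedom 7.25 to 26.4), so all 8 were used.

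Groups and replicate numbers came from the titles. The alternatives were other scalings, filters and tools (DESeq2 1.42.0, limma-voom with limma 3.58.1), a replicate block, an adjusted p under 0.01, and leaving out each library. Members, gene lists and rules were chosen with earlier results of these data known. Named in full were called members, those whose lines do not overlap, and in each of 10 classes the highest and the smallest p, 19 genes in all, plus Tbx1 and the 2 effectors with the smallest p. Members named beyond these were added after their values were seen, to complete a class or a ligand and receptor pair. Grb4, on the effector list, was not matched by symbol.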

Additional observations from a re-analysis of the deposited data

Results flagged for a closer look

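Among 38 groups of 4 libraries examined for the named guidance genes, 4 had a library far from the others of its group. Chance gives such a gap in about 1 in 20 groups. Nrp1 was at 433 CPM in mutant library 1, where the other mutant libraries had 225 to 245 CPM. Slit3 was at 58.4 CPM in parental library 1, against 25.7 to 31.1 CPM in the other parental libraries. Ephb4 was at 47.2 CPM in parental library 3, against 27.3 to 29.9 CPM. Sema5a was at 40.0 CPM in parental library 4, below the 56.2 to 58.1 CPM of the other parental libraries, and its adjusted p without that library was 0.00228.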

How the results depend on the processing

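Epha7, Sema5a and Efnb3 were called higher in all 16 alternatives computed for each. Their adjusted p reached at most 0.00444, 0.00426 and 0.0206. The count of 3 called members became 6 without the low-count filter and 6 with DESeq2, which added Efnb1, Nrp2 and Epha3, and 5 with limma-voom, which added Efnb1 and Nrp2. Leaving out single libraries gave 3 to 5, with 5 without parental library 1. With the replicate number as a block 5 members were called, again Efnb1 and Nrp2 in addition, and 234 genes in all. The labels do not say that a number pairs cultures. Deviations of same-numbered libraries from their group means correlated at only -0.033 to 0.102 across genes. The mean was 0.028, beside -0.009 for libraries with different numbers. Deviations from a group mean cancel within the group, so the second mean nearly follows from the first. It is no separate reference for pairing. Over all genes 188 were called, 439 without the filter, 399 with DESeq2, 86 at an adjusted p under 0.01 and 103 to 235 without single libraries, where 103 was without parental library 2, 104 without parental library 3 and 116 without mutant library 3. Library size alone gave 157, of which 100 higher and 57 lower, where the TMM scaling gave 99 and 89. The effector list had 3 calls without the filter, 3 with DESeq2, 1 with limma-voom and 0 to 1 without single libraries, namely Dpysl5 without mutant library 2 and Flt4 without mutant library 4. The cause of these shifts was not tested. Among the 19 members named by rule, signs turned for Nrp1 without mutant library 1, Slit2 without parental library 3 and Slit3 without mutant library 4. Without single libraries their log2 fold changes ran from -0.077 to 0.43, from -0.00061 to 0.29 and from -0.058 to 0.51. Among the other members, compared only without mutant library 4, signs turned for Epha5 (0.16), Sema6b (0.17) and Sema3b (0.0031). Tbx1 stayed called in its 15 alternatives, with a log2 fold change of -6.28 to -4.74; DESeq2 gave it no adjusted p. For several members with few counts, among them Epha3, Sema3c, Sema3g, Epha5 and Robo3, the 95% intervals spanned more than 2 on the log2 scale.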

Other observations

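Several guidance genes are neighbours in the genome, and their values are given here side by side. Efna1, Efna3 and Efna4 lie within a short stretch of chromosome 3, with gaps of 32.8 kb and 10.4 kb, and had log2 fold changes of -0.38, -0.14 and -0.09, none called. Robo3 and Robo4 are 0.554 kb apart on chromosome 9, at 1.47 and 0.44, none called. Sema3b and Sema3f are 72.3 kb apart on chromosome 9, at -0.17 and -0.86, none called. None of the called genes Epha7, Sema5a and Efnb3 has another member within 1000 kb.

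Mutant library 4 held the lowest value of the 8 libraries for 11 of the 49 tested members (22.4%), and for 26.0% of all tested genes. It held the highest value for 8 members (16.3%), among them Efnb3, Sema5a and Epha3, and for 20.6% of all genes.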
